A study of Mus musculus with 6 samples.

Results

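Collagen, laminin and basement membrane genes were examined in mouse embryonic stem cells (ESCs) with and without *Patz1*. The set held each gene symbol made of *Col*, a number, *a* and a number, each made of *Lam*, 1 of the letters a, b or c, and a digit, and *Fn1*, *Nid1*, *Nid2*, *Sparc*, *Hspg2* and *Agrn*. This gave 61 genes of the 23420 symbols in the count files, of which 44 encode collagen chains, 11 encode laminin chains and 6 encode linkers and glycoproteins. The rule reads symbols alone and uses no measured value.

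RNA without its ribosomal part was sequenced from 3 libraries of E14 wild type (WT) ESCs and 3 libraries of *Patz1* -/- (KO) ESCs. E14 (E14TG2a) is a mouse ESC line, and the KO was made in it with CRISPR/Cas9. Both genotypes were grown with LIF, the MEK1/2 inhibitor PD0325901 and the GSK3 inhibitor CHIR99021. The series names 1 KO line, and the clone it came from is not given in the sources used here, so the genotype and the line cannot be told apart.

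Basement membranes are thin sheets of matrix on which epithelia rest. A laminin is a trimer of an alpha, a beta and a gamma chain, and laminin and collagen IV each form a network that nidogens and the heparan sulphate proteoglycans perlecan and agrin tie together. In the early mouse embryo, the inner cell mass and the primitive endoderm secrete the first basement membranes, and ESCs, derived from the inner cell mass, bind laminin through integrins. Fibrillar collagens such as collagen I and III belong to connective tissue, and fibroblasts are their main source.

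Both genotypes carried the marker genes of ESCs. *Pou5f1* was at a mean of 32176 normalized counts (SD 1842, n = 3) in the WT libraries and of 35441 (SD 885, n = 3) in those of the KO. Normalized counts are counts divided by the library's size factor. *Zfp42* was at 31433 ± 2188 and 34795 ± 1833. *Patz1* itself was at 1838, 1983 and 1843 normalized counts in WT and at 853, 862 and 862 in KO, so that its transcript was lower in each KO library and remained at 45.5% of WT. Replicate 3 was shallower in both genotypes, with 11040756 counts in WT and 11420268 in KO against 37573923 to 47721070 elsewhere. It also had more counts on the ribosomal precursor *Rn45s* (14.4% and 12.5%, against 1.79% to 3.03% in the other libraries). A count of 3 was taken as the floor of detection, which is 1.69 to 8.21 normalized counts per library and covers counting error only.

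The sequences around the start sites of 5 genes are given first, because the results turn on *Lamb1*, *Col18a1* and *Nid1*, and because *Col4a1* and *Col4a2* lie head to head. Each window runs from 250 bases before to 50 bases after a RefSeq start on GRCm38.p6, 5′ to 3′ on the strand of the gene. Capitals mark GGGAGGG, or CCCTCCC where the match is on the opposite strand. This G-rich word was chosen because the zinc finger protein PATZ1 binds G-rich DNA, and a match is a description of these letters, not a binding site. The *Lamb1* window is chr12:31265043-31265342 (plus strand), that of *Nid1* is chr13:13437352-13437651 (plus strand), that of the downstream start of *Col18a1* is chr10:77113656-77113955 (minus strand), that of *Col4a1* is chr8:11312777-11313076 (minus strand) and that of *Col4a2* is chr8:11312555-11312854 (plus strand).
Lamb1: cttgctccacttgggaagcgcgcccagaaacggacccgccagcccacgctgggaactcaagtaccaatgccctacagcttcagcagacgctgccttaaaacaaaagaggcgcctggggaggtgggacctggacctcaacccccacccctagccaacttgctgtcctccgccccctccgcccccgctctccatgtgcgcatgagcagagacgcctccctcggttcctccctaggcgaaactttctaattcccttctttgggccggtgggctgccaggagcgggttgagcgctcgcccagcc
Nid1: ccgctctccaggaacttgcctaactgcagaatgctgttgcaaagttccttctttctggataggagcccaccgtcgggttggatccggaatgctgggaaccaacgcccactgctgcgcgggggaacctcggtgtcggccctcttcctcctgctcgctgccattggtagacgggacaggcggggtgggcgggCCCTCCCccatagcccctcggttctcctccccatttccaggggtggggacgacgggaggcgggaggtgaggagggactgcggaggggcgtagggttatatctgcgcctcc
Col18a1: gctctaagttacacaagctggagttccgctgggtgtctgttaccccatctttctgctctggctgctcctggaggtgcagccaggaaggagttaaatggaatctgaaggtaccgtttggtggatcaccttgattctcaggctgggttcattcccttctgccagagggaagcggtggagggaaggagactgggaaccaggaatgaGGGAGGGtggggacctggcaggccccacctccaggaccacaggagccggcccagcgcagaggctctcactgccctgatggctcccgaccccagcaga
Col4a1: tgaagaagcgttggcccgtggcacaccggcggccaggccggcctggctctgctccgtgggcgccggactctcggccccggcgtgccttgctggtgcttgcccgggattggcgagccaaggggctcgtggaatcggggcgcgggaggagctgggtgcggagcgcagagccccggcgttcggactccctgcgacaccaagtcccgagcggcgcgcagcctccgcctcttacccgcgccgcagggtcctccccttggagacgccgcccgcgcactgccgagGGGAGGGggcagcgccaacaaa
Col4a2: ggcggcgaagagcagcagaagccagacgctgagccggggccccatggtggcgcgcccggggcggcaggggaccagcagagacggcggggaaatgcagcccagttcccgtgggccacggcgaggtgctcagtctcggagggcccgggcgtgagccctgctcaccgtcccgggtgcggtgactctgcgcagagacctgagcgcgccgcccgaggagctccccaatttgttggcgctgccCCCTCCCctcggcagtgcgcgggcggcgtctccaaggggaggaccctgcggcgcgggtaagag

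The *Lamb1* window held no match on either strand. The *Nid1* window held 1, which began 60 bases before the start on the opposite strand. In the *Col18a1* window the match lay 47 bases before the start on the same strand, and the other *Col18a1* window, at the upstream start, held none. The *Col4a1* and *Col4a2* windows overlapped by 78 bases and shared a match at 11312792 to 11312798 on chromosome 8, 28 bases into *Col4a1* and 13 bases before the start of *Col4a2*. A RefSeq window was given for 44 of the 61 genes, and 22 of these 44 (50%) had a match, against 23.8% of 27025 genes with a window. Their windows were also richer in G and C, with a median of 60% against 52.7% for all windows. Counted by window, 24 of 49 (49%) held the word, against 7211 of 32851 (22%).

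To name the matrix genes that ESCs express, the level of each gene was taken as normalized counts per kb of its exons and per 1000000 normalized counts, and a gene was called expressed when this level was at least 1 in each WT library. By this rule 16 of the 61 genes (26.2%) were expressed in WT, against 43.1% of the 23054 genes with a length. They were 6 of 11 laminin genes, all 6 linkers and glycoproteins, and 4 of 44 collagen genes. The 16 genes held 97.7% ± 0.102 of the normalized counts of the whole set in the WT and 97.8% ± 0.115 in the KO (SD over 3 libraries). The set as a whole took 0.171% ± 0.000820 of all normalized counts in the WT and 0.164% ± 0.00666 in the KO.

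*Sparc*, a secreted collagen-binding glycoprotein, had the highest level of the set, 51.8 ± 1.23 in WT (SD, n = 3), above 95.9% of all genes. *Lamc1*, the gamma chain shared by most laminins, followed at 33.4 ± 0.782. *Nid2*, a nidogen that links laminin to collagen IV, was at 31.2 ± 1.29, and *Fn1*, the fibronectin that integrins bind through its RGD motif, at 27.0 ± 1.64. These 4 mean levels stood above those of the other 12 expressed genes, none of which had a mean over 13.2. The order of *Lamc1*, *Nid2* and *Fn1* depends on the length taken and was not resolved. The exons of *Fn1* hold 11685 bases and its longest transcript 8315. *Col18a1*, whose product is a basement membrane collagen and heparan sulphate proteoglycan, was at 13.2 ± 2.81, *Nid1* at 12.1 ± 0.730 and *Agrn* (agrin) at 11.6 ± 0.985. *Lama5* ran from 8.90 to 13.6 over the WT libraries. The spreads of these 4 levels overlapped, so their order was not resolved.

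*Lama1*, the alpha chain of the first laminin of the embryo, had a level of 7.97 ± 0.543 in WT, *Hspg2* (perlecan) one of 5.01 ± 2.42, *Lamb1* one of 4.62 ± 0.333 and *Col4a1* one of 4.52 ± 1.01. Further down were *Lamb2* (3.32), *Col9a2* (2.09) and *Col5a1* (1.25). *Col5a1* was the gene just inside the threshold, with levels of 1.00, 1.00 and 1.74 in WT replicates 1, 2 and 3. *Col4a2*, which encodes the chain that pairs with *Col4a1* in the collagen IV trimer, fell just outside with levels of 0.876, 0.956 and 1.26. It passed in KO at 1.04, 1.18 and 1.77, and was the 1 gene expressed in KO (17 genes) and not in WT by this rule. *Col13a1* was next below it, at 0.858 ± 0.0475 in WT.

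Collagens I and III, of connective tissue, were at low counts. *Col1a1* had 10.9, 15.5 and 8.21 normalized counts in the WT libraries and 13.0, 11.9 and 2.64 in KO. *Col1a2* had 14.3, 12.7 and 5.48 in WT and 6.21, 5.34 and 7.93 in KO. *Col3a1* did not exceed 3 raw counts in any library, nor did *Col4a4*, *Col4a6* and *Col19a1*. Of the 6 collagen IV genes, *Col4a1* alone met the rule for expression in WT, and *Col4a5*, with *Col4a6* the X-linked member of the family, had 0.572 to 5.48 normalized counts in WT and 2.97 to 7.93 in KO. Altogether, 21 of the 61 genes had a mean under 10 normalized counts in both genotypes. None of the 6 collagen VI genes, the 3 short-chain network collagens and the 4 transmembrane collagens met the rule.

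**Figure D1:**
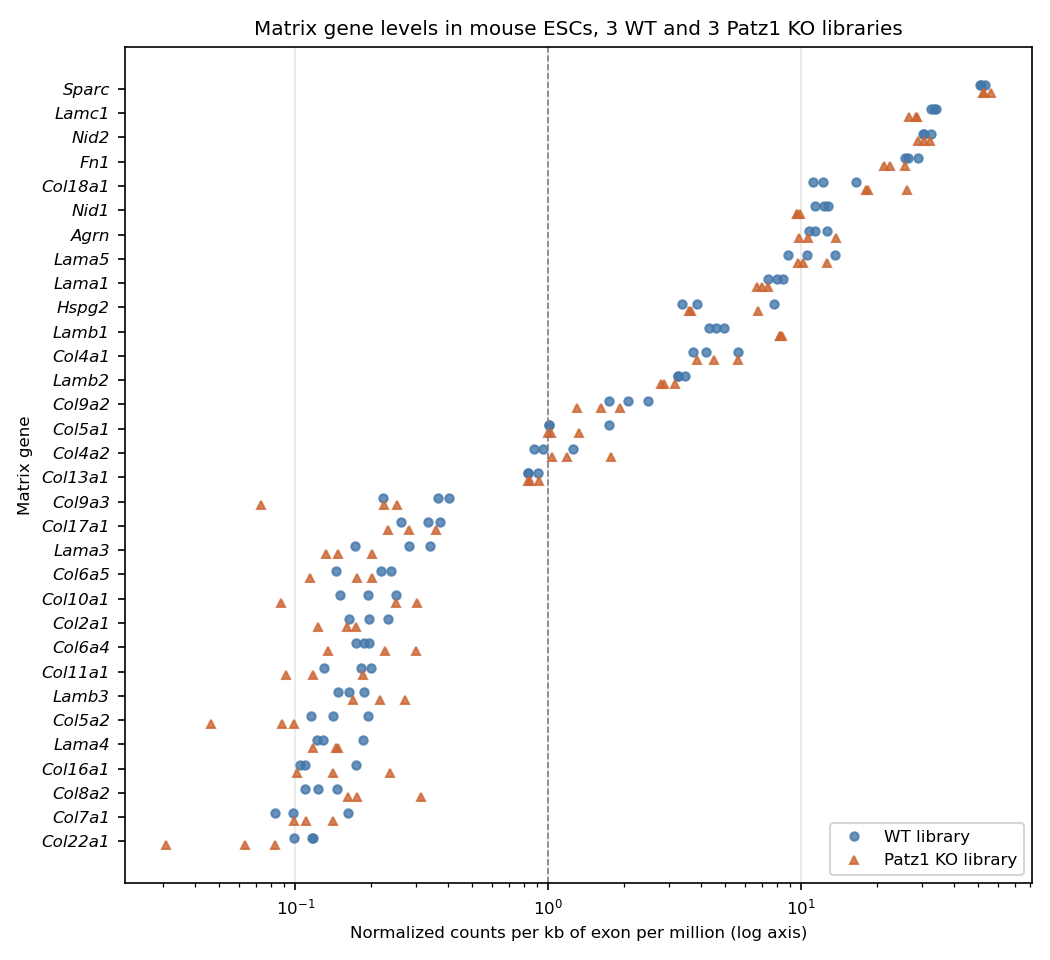
Level of each of 32 matrix genes with a mean of at least 0.1 in either genotype, as normalized counts per kb of exon and per 1000000 on a log axis, with 1 point per WT library (circles) and KO library (triangles) and the threshold of 1 dashed. *Sparc*, *Lamc1*, *Nid2* and *Fn1* sit at the top, *Lamb1* shows the clearest gap between the genotypes, and *Col4a2* lies across the threshold.

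Expression was then compared between WT and *Patz1* KO with the Wald test of DESeq2 over all genes, with p-values adjusted by Benjamini-Hochberg and a threshold of 0.05. Of the 61 genes, 43 received an adjusted p and 18 did not, because independent filtering left out genes of low mean. The test called 4 of the 43 (9.3%), against a background of 7.49% of 15309 genes. *Lamb1* and *Col18a1* were higher in KO, where the background was 2.7%, and *Lamc1* and *Nid1* were lower, where it was 4.78%. All 4 were among the 16 expressed genes. The share called was near the background, and the median log2 fold change (KO over WT) was −0.11 over the 43 genes and −0.12 over the 16, against 0.0087 over all genes tested. In 14 of the 16 expressed genes the log2 fold change lay between −0.5 and 0.5.

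**Figure D2:**
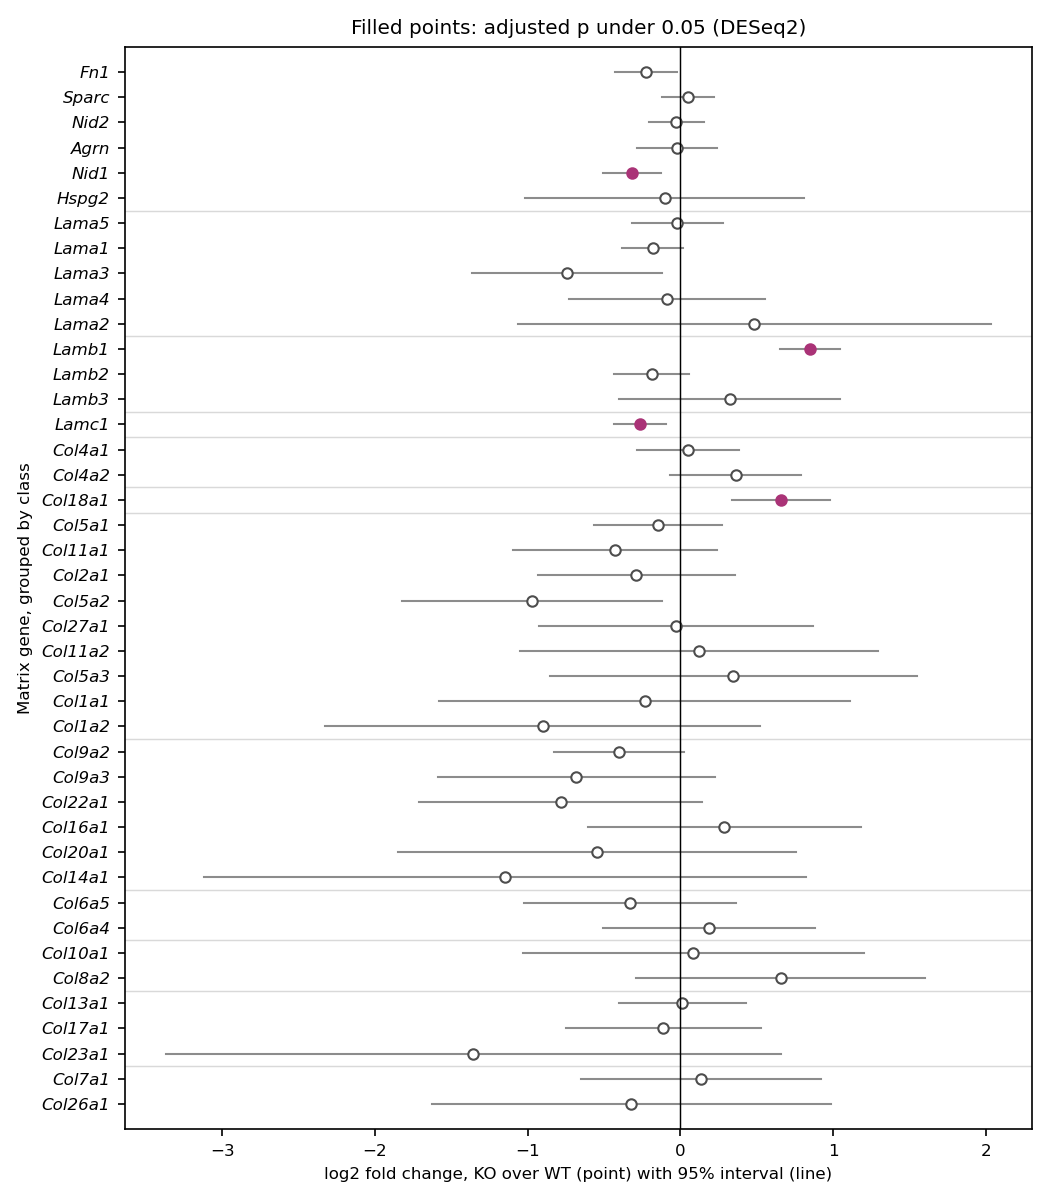
Log2 fold change, KO over WT, of 42 matrix genes with an adjusted p, grouped by class, with lines for the 95% interval of the DESeq2 fit and filled points for an adjusted p under 0.05. *Lamb1* and *Col18a1* are filled on the right of 0, *Lamc1* and *Nid1* on the left, and the intervals widen towards the genes of low count.

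*Lamb1* encodes the beta-1 chain of laminin and lies on chromosome 12 from 31265234 to 31329644 (plus strand, GRCm38). Its normalized counts were 1195, 1277 and 1380 in WT and 2336, 2280 and 2281 in KO. Each KO library stood above each WT library, and the gap was many times the spread within a genotype. The log2 fold change was 0.85 ± 0.10 (SE), a fold of 1.80 with a 95% interval of 1.57 to 2.06 (adjusted p = 1.26e-14, DESeq2). The call was kept in each of the 15 alternative analyses, with log2 fold changes of 0.80 to 0.90. In bulk RNA, a change in the number of cells that express a gene and a change in RNA per cell cannot be told apart.

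*Lamc1*, on chromosome 1 from 153218922 to 153332786 (minus strand), encodes the gamma-1 chain that joins the beta-1 chain in the same trimer. It had 7929, 7566 and 7741 normalized counts in WT and 6628, 6156 and 6601 in KO, with no overlap between the genotypes. This was a log2 fold change of −0.26 with an SE of 0.09 (DESeq2, adjusted p = 0.0361). The direction was the same in every alternative, with log2 fold changes of −0.28 to −0.23. The call was lost with edgeR (adjusted p = 0.0785) and in 5 of the 6 fits that left out 1 library. The adjusted p was 0.207 without WT replicate 1, 0.153 without WT replicate 2, and 0.157, 0.313 and 0.0600 without KO replicates 1, 2 and 3. With the replicate number as a block in DESeq2, the call was kept (adjusted p = 4.56e-05).

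*Lamb1* thus rose while *Lamc1* fell. The level of *Lamb1* was 0.138 ± 0.0117 times that of *Lamc1* in WT libraries and 0.297 ± 0.0107 times in KO libraries (SD over 3), with ranges of 0.126 to 0.149 and 0.288 to 0.309. Against *Lamb2*, which encodes the beta-2 chain found in muscle, nerve and kidney basement membranes, the ratio of levels was 1.39 ± 0.117 in WT and 2.82 ± 0.218 in KO. Against *Lama1* it was 0.581 ± 0.0413 and 1.18 ± 0.0630. Each of these ratios was higher in all KO libraries than in any WT library. The size of a ratio depends on the length taken for each gene. The exons of *Lamb1* hold 9917 bases and its longest transcript 5784, so which of 2 chains is higher was not resolved. The relative change of a ratio between the genotypes does not depend on length. With 3 libraries against 3, an exact permutation test cannot give a p below 0.1, and the ratios are given as a description.

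*Lama1*, *Lama5* and *Lamb2* did not pass the test. *Lama1* had 2170, 2011 and 2305 normalized counts in WT and 1895, 1816 and 2011 in KO. Its KO libraries were no higher than the lowest WT library, but the log2 fold change of −0.18 ± 0.10 did not pass (adjusted p = 0.374). *Lama5*, the alpha chain most widespread in adult basement membranes, had 2839, 3357 and 4334 normalized counts in WT and 3228, 3103 and 4049 in KO. These values overlapped, with a fold of 0.987 and a 95% interval of 0.802 to 1.21. *Lamb2* had 554, 589 and 553 normalized counts in WT and 476, 488 and 542 in KO, without overlap and without a call (log2 fold change −0.19, adjusted p = 0.511).

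*Nid1*, nidogen-1, lies on chromosome 13 from 13437551 to 13512269 (plus strand). It had 2472, 2195 and 2388 normalized counts in WT and 1875, 1920 and 1868 in KO. All KO libraries stood below the lowest WT library, with a log2 fold change of −0.32 and an SE of 0.10 (DESeq2, adjusted p = 0.0214). edgeR kept the call (adjusted p = 0.0351), which was lost in 4 fits that left out 1 library. The adjusted p was 0.197 without WT replicate 1 and 0.183, 0.129 and 0.0656 without KO replicates 1, 2 and 3. Under the replicate block *Nid1* passed (DESeq2, adjusted p = 0.000539). Its paralogue *Nid2* had 4424, 4399 and 4734 normalized counts in WT and 4445, 4213 and 4667 in KO. These values overlapped, and the fold of 0.983 had a 95% interval of 0.867 to 1.11.

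*Col18a1* lies on chromosome 10 from 77052178 to 77166548 (minus strand) and gives rise to endostatin by cleavage of its protein. It had 2181, 2386 and 3223 normalized counts in WT and 3550, 3616 and 5137 in KO. Replicate 3 was the highest library in both genotypes, and the lowest KO library was above the highest WT library. The log2 fold change was 0.66 ± 0.16 (SE), a fold of 1.58 with a 95% interval of 1.26 to 1.98 (adjusted p = 0.00188, DESeq2). The ratios of same-numbered libraries were close, at 0.70, 0.60 and 0.67 on the log2 scale. The call was lost with edgeR (adjusted p = 0.0649) and without WT replicate 1 (adjusted p = 0.0768). It was kept with the replicate block (DESeq2, adjusted p = 1.35e-22).

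*Fn1*, the fibronectin gene on chromosome 1, had 8615, 8443 and 9449 normalized counts in WT and 6943, 7347 and 8388 in KO. The genotypes did not overlap, and the log2 ratios of KO over WT in same-numbered libraries were −0.31, −0.20 and −0.17. The log2 fold change of −0.23 ± 0.10 did not pass (adjusted p = 0.205). Same-numbered libraries of the genotypes deviated together, and with the replicate number as a block *Fn1* passed (adjusted p = 0.000823), and the block raised the calls among the matrix genes to 5 of 40 with an adjusted p, against a background of 14.6%. *Fn1* also passed without KO replicate 3 (adjusted p = 0.0440) and without replicate 3 of both genotypes (adjusted p = 0.0251). *Apol7d* on the opposite strand shares 292 exon bases with *Fn1*, and whether the authors' counting used strand is not given in the sources used here.

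**Figure D3:**
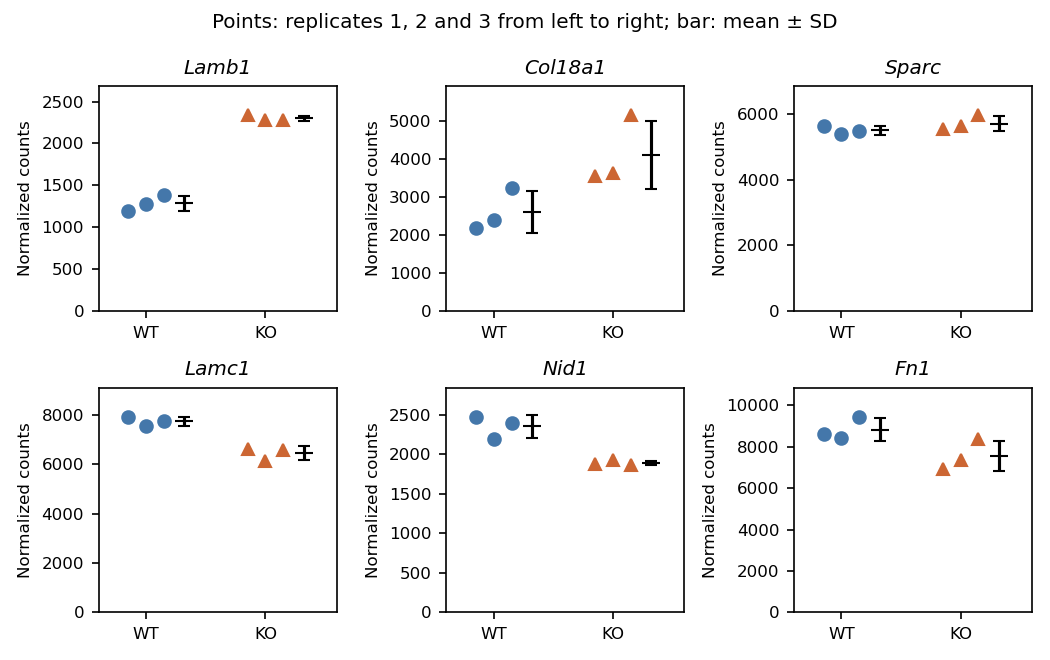
Normalized counts of 6 matrix genes in the 3 WT libraries (circles) and 3 KO libraries (triangles), with replicates 1, 2 and 3 from left to right, bars for mean ± SD and axes that start at 0. *Lamb1* and *Col18a1* are higher in KO, *Lamc1*, *Nid1* and *Fn1* are lower without overlap, and the libraries of *Sparc* overlap.

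*Sparc* had 5643, 5389 and 5463 normalized counts in WT and 5528, 5617 and 5954 in KO, which overlapped. Its fold was 1.04 with a 95% interval of 0.920 to 1.16 (log2 fold change 0.05, adjusted p = 0.875, DESeq2). *Sparc* lies on chromosome 11, where the median log2 fold change of 1260 tested genes was −0.27, and where 254 genes were called lower and 14 higher. After chromosome 11 and the distal part of X were centred in each library, *Sparc* had a log2 fold change of 0.34 and passed the test (adjusted p = 0.00277). *Sparc* was thus higher than the shift of its chromosome and level with WT without that correction. The matrix genes *Col1a1* and *Col23a1* lie on the same chromosome and were at low counts.

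Perlecan and agrin showed no call. *Hspg2* had 1350, 1554 and 3124 normalized counts in WT and 1444, 1469 and 2706 in KO. Replicate 3 was about as far above the others in both genotypes. The 95% interval of the fold ran from 0.495 to 1.76, so without the pairing any fold within these bounds was compatible with the data. With the replicate block its log2 fold change was −0.06 with an SE of 0.08. *Agrn* had 2952, 2782 and 3286 normalized counts in WT and 2768, 2544 and 3581 in KO, with a fold of 0.984 and an interval of 0.821 to 1.18. Replicate 3 was the highest library in both genotypes for 9 of the 16 expressed genes (56.2%), against 24.1% of 11524 genes with a mean of at least 50 normalized counts. The part that RNA quality or depth of replicate 3 had in these levels was not tested.

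*Col4a1* and *Col4a2* share a promoter region and encode the chains of the main collagen IV network. *Col4a1* had 777, 875 and 1180 normalized counts in WT and 806, 941 and 1179 in KO, a fold of 1.03 with a 95% interval of 0.821 to 1.30. *Col4a2* had 162, 177 and 233 in WT and 192, 219 and 328 in KO, a fold of 1.28 with an interval of 0.954 to 1.73 (adjusted p = 0.429). Neither gene passed, and the libraries of each overlapped. The level of *Col4a1* was 4.37 ± 0.127 times that of *Col4a2* in WT and 3.57 ± 0.335 times in KO, with ranges of 4.24 to 4.50 and 3.19 to 3.81. The exons of these genes share 22 bases on opposite strands.

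Of the 26 collagens with an adjusted p other than *Col18a1*, none was called by DESeq2 (background 7.49%), edgeR or limma-voom, and 1 had an unadjusted p under 0.05. *Col9a2*, a fibril-associated collagen of cartilage, had 180, 214 and 151 normalized counts in WT and 113, 166 and 140 in KO (log2 fold change −0.40, adjusted p = 0.345). *Col5a1*, which regulates the diameter of collagen I fibrils, had 239, 239 and 413 in WT and 243, 238 and 314 in KO. *Col13a1*, a transmembrane collagen, had 107, 107 and 118 in WT and 109, 107 and 119 in KO. All 3 overlapped between the genotypes. *Col9a1* had 3, 4 and 4 raw counts in WT and 0 in each KO library, which lies at the floor and gave no adjusted p.

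Counted without a test, WT and KO values were fully apart in 11 of the 43 genes with an adjusted p, against 25.6% of all genes tested. KO was higher in 3 of them, against 11.8%, and lower in 8, against 13.8%. Besides the 4 called genes, *Fn1*, *Lama1* and *Lamb2* described above, these were *Col8a2* (higher in KO) and *Col5a2*, *Col22a1* and *Col23a1* (lower in KO), which were not expressed by the rule.

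The genes next to the called genes were also tested. For each called gene the 2 nearest tested genes on either side were taken. None of these 16 passed by DESeq2 (background 7.49%), edgeR or limma-voom, and 2 had an unadjusted p under 0.05. With 16 genes, a count of 0 is near that background. Beside *Lamb1*, *Dld* had a log2 fold change of 0.14 (adjusted p = 0.523) and *Acp1* one of 0.24 (adjusted p = 0.0864). *Slc19a1*, next to *Col18a1*, had one of 0.07 (adjusted p = 0.910), while beside *Nid1*, *Gpr137b* had one of −0.74 (adjusted p = 0.218) and *Lyst* one of −0.10 (adjusted p = 0.860). *Gpr137b*, at 58.0 normalized counts in WT and 33.5 in KO, is the nearest tested gene to *Nid1* and differed in the same direction.

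**Figure D4:**
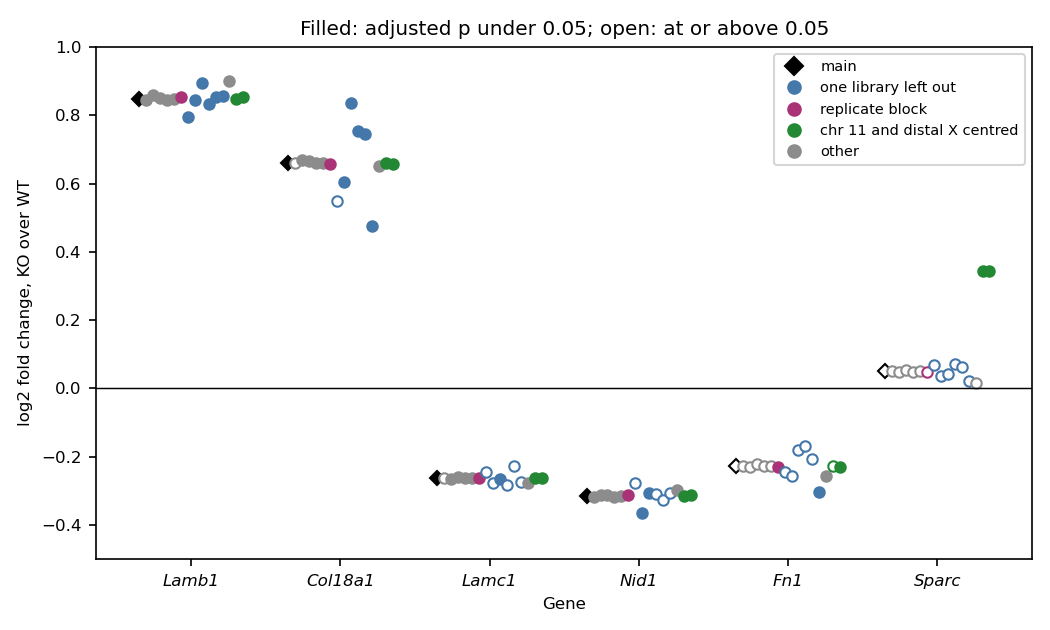
Log2 fold change, KO over WT, of 6 matrix genes in the main analysis (diamond) and in the 15 alternatives, with filled symbols for an adjusted p under 0.05. *Lamb1* is filled in all of them, *Fn1* in 4 of them, and *Sparc* where chromosome 11 was centred.

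Collagen chains are hydroxylated, folded and exported by a set of enzymes and chaperones in the endoplasmic reticulum. Of 23 such genes in the files, 20 had an adjusted p, 3 were higher in KO (background 2.7%) and 1 was lower (background 4.78%), with a median log2 fold change of −0.03 against 0.0087 for all genes tested. With the replicate block, which called 14.6% of all genes, 2 were lower. *Crtap*, of the collagen prolyl 3-hydroxylation complex, was the added one (log2 fold change −0.33, DESeq2, adjusted p = 0.00803). *Fkbp10*, which encodes the collagen chaperone FKBP65, had 319, 309 and 397 normalized counts in WT and 614, 608 and 745 in KO. Every KO library was above every WT library, with a log2 fold change of 0.95 and an SE of 0.15 (DESeq2, adjusted p = 1.68e-08). *Leprel4* (now *P3h4*), which forms a complex for lysine hydroxylation of collagen, rose from a mean of 126 (SD 12.7) to 197 (SD 13.6) over 3 libraries, with a log2 fold change of 0.64 (adjusted p = 0.0149). It ends 861 bases before *Fkbp10* begins on chromosome 11, where most called genes were lower. Its call was lost without WT replicate 1 (adjusted p = 0.180), KO replicate 1 (0.214) or KO replicate 2 (0.0894).

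*P4ha1* and *P4hb* encode the alpha and beta subunits of a collagen prolyl 4-hydroxylase. *P4ha1* had 495, 548 and 479 normalized counts in WT and 738, 910 and 518 in KO. Its values overlapped, and the call (log2 fold change 0.52, adjusted p = 0.0422, DESeq2) was lost in 9 of the 15 alternatives, in which the adjusted p reached 0.522. *P4hb*, which is also the protein disulphide isomerase of the cell, had 17888, 15159 and 13195 normalized counts in WT and 11215, 11078 and 10209 in KO. It was lower in each KO library (log2 fold change −0.51 ± 0.12, adjusted p = 0.000636). *P4hb* lies on chromosome 11, and with that chromosome centred and no block its log2 fold change was −0.21 and did not pass (adjusted p = 0.318). This was the 1 alternative of 15 in which the call was lost, and with centring and the block together it was kept.

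Outside the cell, procollagens are trimmed and crosslinked. None of 13 genes with an adjusted p for this step passed by DESeq2 (background 7.49%), edgeR or limma-voom, while 2 had an unadjusted p under 0.05. The median log2 fold change was 0.28, against 0.0087 for all genes tested. *Loxl2*, a lysyl oxidase, was at 3746 normalized counts in WT and 3672 in KO. *Pcolce*, the enhancer of procollagen cleavage, was at 3209 and 3312, and *Pcolce2* at 1517 and 1718.

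Among 27 matrix receptors with an adjusted p, 1 was lower in KO and none was higher by DESeq2 (background 7.49% called), 6 had an unadjusted p under 0.05, and edgeR called 1 and limma-voom 3. The median log2 fold change was 0.0099. The gene called was *Ddr2*, a receptor tyrosine kinase for fibrillar collagen. It had 112, 161 and 183 normalized counts in WT and 56.4, 49.8 and 18.5 in KO, without overlap (log2 fold change −1.73 ± 0.31, adjusted p = 1.83e-06, DESeq2). *Itgb1*, *Itga6* and *Dag1*, whose products bind laminin, gave no call. *Itgb1*, the common beta subunit, was at 4745 ± 36.3 normalized counts in WT and 5459 ± 34.6 in KO (log2 fold change 0.20, adjusted p = 0.129). *Itga6*, its partner in the laminin receptor, was at 1835 ± 101 and 1855 ± 108, and *Dag1*, dystroglycan, at 2525 ± 77.2 and 2367 ± 52.1. With the replicate block the list had 1 gene higher, *Itgb1*, and 4 lower, *Ddr2*, *Itgav*, *Itgb3* and *Itgb5*, giving 5 calls in place of 1. Over all genes the share called was 7.49% without the block and 14.6% with it. *Itgb3* lies on chromosome 11 and had an adjusted p of 0.380 with that chromosome centred and no block.

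Of 19 matrix proteases and inhibitors with an adjusted p, *Mmp11*, the stromelysin-3 gene, was the 1 call, against a background of 7.49%. It had 366, 420 and 320 normalized counts in WT and 495, 531 and 497 in KO, without overlap (log2 fold change 0.44, adjusted p = 0.0296, DESeq2). The call was lost in 7 of the 15 alternatives, among them edgeR (adjusted p = 0.0510). edgeR called 1 gene of this list, which was not *Mmp11*. With the block, under which 14.6% of all genes were called, *Adamts9* joined *Mmp11*. *Adamts9*, which encodes a versican protease, was lower (log2 fold change −0.41, DESeq2, adjusted p = 0.0259).

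Of 25 other basement membrane and matrix glycoproteins with an adjusted p, *Smoc1* was the 1 call, against a background of 7.49%, and the median log2 fold change was 0.10. *Smoc1* encodes a calcium-binding matrix protein of the SPARC family that modulates BMP signalling. It had 502, 410 and 334 normalized counts in WT and 49.1, 34.4 and 58.1 in KO, so that no KO library came near the WT libraries. Its log2 fold change of −3.23, with an SE of 0.23, was the deepest of the list (DESeq2, adjusted p = 4.25e-42). With the block, where 14.6% of all genes were called, *Ntn1* (netrin-1) was also lower and *Vcan* (versican) higher. *Ntn1* lies on chromosome 11 and had an adjusted p of 0.938 with that chromosome centred and no block.

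**Figure D5:**
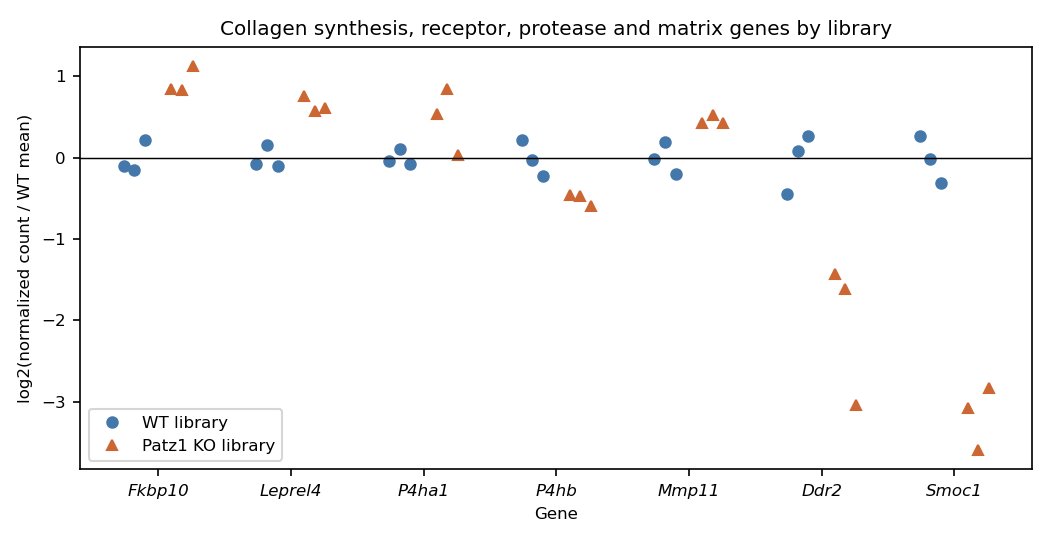
Log2 of the normalized count over the WT mean, per library, for the 7 called genes of collagen synthesis, receptors, proteases and other matrix glycoproteins, with circles for WT and triangles for KO. *Smoc1* and *Ddr2* lie far below WT, *Fkbp10* and *Leprel4* above it, and 1 KO library of *P4ha1* lies at the WT level.

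Cells that leave the ESC state can make much of this matrix, so markers of 2 such cell types were measured. Of 13 markers of primitive endoderm, which secretes laminin and collagen IV, 9 had an adjusted p, of which 2 were called (background 7.49%), and the summed normalized counts ranged from 267 to 348 in WT and from 245 to 283 in KO. *Dab2* was higher in KO (32.6 to 78.7 normalized counts, adjusted p = 0.00191) and *Hnf4a* lower (125 to 40.0, adjusted p = 7.42e-07, DESeq2), while *Gata4* was at 27.9 and 25.2, *Sox7* at 49.2 and 48.4, and *Ttr* at 0 in every library. The call of *Dab2* was lost without WT replicate 1 (adjusted p = 0.0770) or WT replicate 2 (0.0531). Of 16 fibroblast markers, 10 had an adjusted p and 4 were higher in KO (background 2.7%), *Thy1*, *Twist1*, *Acta2* and *Tagln*, and the summed normalized counts ranged from 493 to 582 in WT and from 683 to 735 in KO. *Tagln* rose from 32.9 to 102 and *Acta2* from 8.26 to 42.1 normalized counts, whereas *Dcn*, *Lum* and *Postn* had means of at most 1.29 and *Fap* was at 0 in every library. *Mfap5* and *Pdgfrb*, the most abundant of the list, had log2 fold changes of −0.32 (adjusted p = 0.646) and −0.16 (adjusted p = 0.820). The call of *Thy1* was lost in 6 of the 15 alternatives, with an adjusted p of up to 0.248, and that of *Twist1* in 6, with one of up to 0.511. Of the 10 ESC markers, *Dppa5a* was higher (log2 fold change 0.38, adjusted p = 0.00223), against a background of 2.7%, and 4 were higher with the replicate block, where 14.6% of all genes were called in either direction. The call of *Dppa5a* was lost without WT replicate 2 (adjusted p = 0.0543) or KO replicate 2 (0.0575). The part of such cells in the matrix values was not tested.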

How the data were processed

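Total RNA of 3 WT and 3 *Patz1* KO ESC libraries was ribosome-depleted and made into stranded libraries. The authors deposited raw counts per gene symbol, 1 file per library, with no normalization. The reads were mapped to mm10, and the submitters' processing notes name TopHat2 (2.1.1), Bowtie2 (2.3.1.0), featureCounts (1.6.2) and DESeq2. The annotation and the use of strand in counting are not given in the sources used here, so overlapping genes are uncertain.

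Groups came from the sample titles. Counts were tested with the two-sided Wald test of DESeq2 (1.42.0; median-of-ratios size factors, genotype as the model, independent filtering at 0.1, no shrinkage, Benjamini-Hochberg, threshold 0.05) over all genes. Alternatives were edgeR (4.0.16), limma-voom (limma 3.58.1), TMM size factors, at least 10 counts in 3 libraries, tests without independent filtering, a block for the replicate number, leaving out each library or both replicate 3 libraries, and centring chromosome 11 and distal X, also with the block. Same-numbered WT and KO libraries deviated together from their genotype means (r = 0.469, 0.619 and 0.684 over 11524 genes), so the numbers, shared in the titles, were taken to pair the libraries. The study calls the 3 libraries of a genotype biological replicates. Whether the ESC libraries came from separate cultures is not given in the sources used here, so p-values measure the spread between these libraries. No 2 libraries agreed within sampling noise. The code was tested on simulated counts.

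Positions and exon lengths came from GENCODE M21 (GRCm38, the build of mm10) and promoter windows from RefSeq (GRCm38.p6). The genes, 8 lists and tests were chosen with earlier results of these data known. *Hmcn2* of 38 other matrix genes had no matching symbol. Genes named are those called, the 12 matrix genes of highest WT level, a set of core chains, in each pathway list up to 5 per direction with a mean of at least 50 in the higher genotype, called markers and the 3 most abundant of each marker list, and *Patz1*. Any other gene was named after its values were seen. A gene of the set is not reported here by name, though it enters the counts.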

Additional observations from a re-analysis of the deposited data

How the results depend on the processing

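Calls among the 61 matrix genes numbered 4, and 2 with edgeR (*Lamb1* and *Nid1*). Leaving out 1 library gave 1 to 5, and the lowest count came without WT replicate 1. For collagen synthesis (4 calls), centring chromosome 11 and distal X left 2, and leaving out 1 library gave 2 to 4. For receptors (1 call), limma-voom gave 3, the count filter 2, both replicate 3 libraries left out 2, and leaving out 1 library 1 to 3. For proteases (1 call), limma-voom gave 3 and leaving out 1 library 0 to 1, with 0 without WT replicate 1 or 3 or KO replicate 1 or 2. For other glycoproteins (1 call), edgeR and limma-voom gave 2 each and leaving out 1 library 1 to 2. The replicate block gave 5 receptors, 2 proteases and 3 other glycoproteins, and with centring 5, 2 and 2. Over the 39 genes named by the rule, 491 of 575 gene and alternative pairs kept direction and side of the threshold, 48 lost a call, 10 gained one and 26 turned direction. No called gene turned direction. With a library left out, the log2 fold change ran from −0.17 to 0.076 for *Agrn*, −0.52 to 0.047 for *Col1a1*, −0.094 to 0.22 for *Col4a1*, −0.46 to 0.36 for *Hspg2*, −0.15 to 0.15 for *Lama5*, −0.057 to 0.013 for *Nid2*, −0.51 to 0.042 for *Mfap5* and −0.22 to 0.26 for *Sox7*. Both replicate 3 libraries left out gave 0.0055 for *Hspg2*, 0.032 for *Lama5* and 0.052 for *Sox7*. Centring gave 0.062 for *Col1a1*. *Sox7* was at 0.036 with limma-voom and 0.010 with the replicate block, with or without centring. The number of matrix genes expressed in WT was 16, and 14 to 18 with thresholds of 2 and 0.5, 17 with the longest transcript. Other causes of these changes were not tested. The 21 genes with means under 10 normalized counts lie near the floor of 3 counts, which is up to 8.21 normalized counts in the shallowest library.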
